A study of Homo sapiens with 12 samples.

Results

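IL-6 family cytokines and the gp130 receptor chain were followed across all 12 RNA-seq libraries through 10 genes. They were chosen by name for their place in the pathway, with earlier results of these data known. The ligands were IL6, LIF, IL11 and CLCF1, and the receptors IL6ST (gp130), LIFR, OSMR and IL6R. The others were the transcription factor STAT3 and its feedback inhibitor SOCS3. These 10 genes are part of the 62069 gene identifiers in the count table, and all 10 were among the 13248 with enough reads to be tested.

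Cytokines of the IL-6 family signal through complexes that hold gp130, the shared receptor chain encoded by IL6ST. IL-6 and IL-11 first bind a ligand-specific chain (IL6R, IL11RA) that has no signalling activity of its own, whereas LIF joins gp130 to LIFR, and oncostatin M can join it to OSMR or LIFR. Receptor-bound JAK kinases then phosphorylate STAT3, which enters the nucleus and switches on genes that include SOCS3, whose product blocks gp130. In fibroblasts, IL-6 is a well-known component of the secretions of senescent cells.

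The cells were IMR90 ER:RAS, fibroblasts from human fetal lung that carry oncogenic RAS as a fusion with oestrogen receptor sequence, so that the protein becomes active once 4-hydroxytamoxifen (4OHT) is added. Libraries 17 to 20 came from cells given DMSO, the solvent (non-senescent in the series design). Libraries 21 to 24 came from cells given 100 nM 4OHT (senescent), and libraries 29 to 32 from cells given 4OHT together with 3-deazaadenosine (3DA), a drug that blocks the hydrolysis of S-adenosylhomocysteine and so hampers methylation reactions. All carried ER:RAS, were at passage 15 and were taken at day 6, with fresh medium at day 4. For 3DA, neither dose nor time of addition is given in the sources used here. No cells lacking ER:RAS received 4OHT, so effects of the drug 4OHT and of RAS cannot be told apart. No cells received 3DA alone. An effect of 3DA on the response to 4OHT therefore cannot be told from an effect that 3DA has without 4OHT.

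Libraries held 9451160 to 19291493 reads. HRAS was at 1610 ± 76.0 CPM with DMSO, 2295 ± 130 with 4OHT and 1844 ± 237 with 4OHT+3DA (mean ± SD, n = 4), and counts per gene do not separate the fusion from the cells' own copy. HRAS was higher with 4OHT than with DMSO (log2 0.51, edgeR adjusted p = 1.55e-05). With 4OHT+3DA it was lower than with 4OHT (log2 -0.32, edgeR adjusted p = 0.00518) and higher than with DMSO (log2 0.20, edgeR adjusted p = 0.0401). The part of these HRAS differences in the results below was not tested. All 12 fibroblast markers were expressed, with summed levels of 14673 to 16363 CPM with DMSO, 9958 to 11184.5 with 4OHT and 9657 to 10903 with 4OHT+3DA. Epithelial markers, of which 5 of 10 passed the filter, summed to 124 to 147, 55.1 to 59.9 and 41.9 to 53.7 CPM in the same order. Endothelial markers (2 of 7 passed) stayed at or under 7.50 CPM, with PECAM1 and CDH5 at 0 reads throughout, and immune markers (1 of 9 passed) at or under 3.94 CPM, with CD3E, NKG7 and ITGAM at 0 throughout. The part of these markers in the results below was not tested. Library 31 stood apart from its group: its deviation from the group mean followed transcript GC content with a Spearman rho of -0.607 across genes, against 0.500 in library 32, 0.331 in library 29 and -0.164 to 0.128 in the other libraries. For the 10 genes, calls that changed without library 31 are given with and without it. Where a result is given with the GC trend removed, that trend was taken against the mean of all libraries, not of the group. Such a correction also removes any GC trend that differs between the groups. The labels do not say that replicates were separate cultures, so p-values reflect only how much these libraries vary among themselves, and that variation may be technical.

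Levels are given as CPM, reads of a gene relative to the scaled size of the library, for each library in the order of its number. Changes are log2 fold changes with their standard error (SE), tested with edgeR's quasi-likelihood test and adjusted by Benjamini-Hochberg over all 13248 genes, and "rose" or "fell" is used for an adjusted p under 0.05. In bulk RNA, fewer cells expressing a gene and less of its RNA per cell cannot be told apart.

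With 4OHT, transcripts of all 4 ligands and of the receptor chains gp130 and OSMR rose over DMSO, and IL6R fell. Of the 10 genes, 8 passed the test, as did 52.0% of all genes tested: 7 rose, where 26.5% of all genes rose, and 1 fell, where 25.5% fell. The median log2 change of the 10 genes was 0.63, against -0.01 over all genes tested. The libraries of the compared groups did not overlap for 9 of the 10 genes, a separation that 51.5% of all genes showed. The ligands moved most, from 1.61 for LIF to 2.23 for IL6, and the changes of the receptors and of STAT3 stayed between -0.52 and 0.74.

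When 3DA was given with 4OHT, 7 of the 10 genes differed from 4OHT alone, as did 26.9% of all genes. Of these, 6 were lower, where 12.4% of all genes were lower, and 1, LIFR, was higher, where 14.4% of all genes were higher. The median over the 10 genes was -0.38, against 0.01 for all genes. Without library 31 the counts were 6 lower and 0 higher, the lost call being LIFR. Groups did not overlap for 6 of the 10 genes (25.0% of all genes). Against DMSO, 7 of the 10 genes differed with 4OHT+3DA (51.5% of all genes), 5 of them higher (27.0%) and 2 lower (24.6%), with no overlap for 8 of the 10 (44.7% of all genes) and a median of 0.57 against 0.01. Without library 31, 6 were higher and 1 lower, since IL6 gained the call and SOCS3 lost it. The 3 comparisons share libraries with each other, so their values are set side by side and were not correlated.

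**Figure D1:**
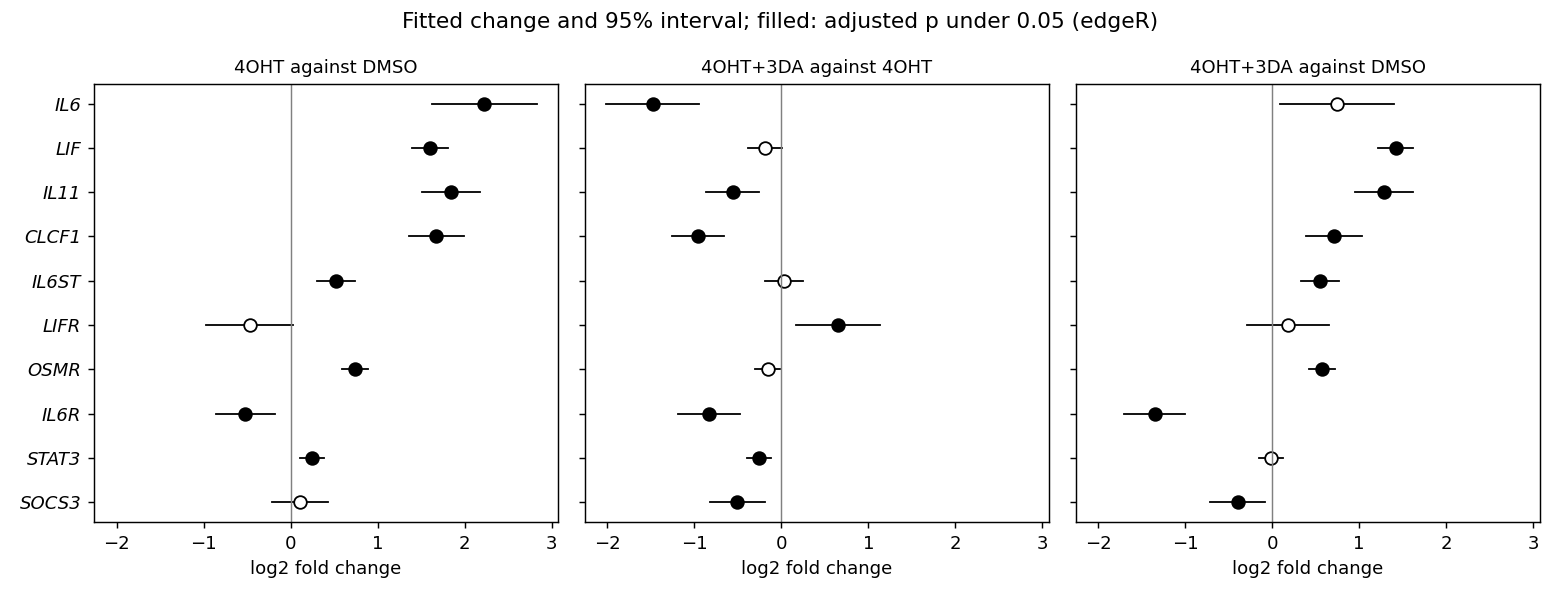
Log2 fold changes of the 10 genes (points) with 95% intervals (lines) from edgeR in the 3 comparisons, filled where the adjusted p was under 0.05. The 4 ligands lie between 1.61 and 2.23 for 4OHT against DMSO, and for 4OHT+3DA against 4OHT they spread from -1.48 (IL6) to -0.19 (LIF).

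The regulatory sequence upstream of the genes is shown here for IL6 and IL11, ligands that rose with 4OHT and fell when 3DA was added, and for IL6ST, which rose with 4OHT and did not pass the test between 4OHT+3DA and 4OHT. RefSeq windows (GRCh38.p14) were at hand for 8 of the 10 genes, 11 windows in all, and the 250 bases before each start were searched on both strands for NF-kappa-B (kappa-B) sites, STAT sites of the GAS type (TTCNNNGAA), AP-1 (TGANTCA), CRE (TGACGTCA) and C/EBP (TTGCNNAAT). Matches are in capitals in the sequences, which run 5′ to 3′ on the gene's strand.
IL6, chr7:22726950-22727199, plus strand: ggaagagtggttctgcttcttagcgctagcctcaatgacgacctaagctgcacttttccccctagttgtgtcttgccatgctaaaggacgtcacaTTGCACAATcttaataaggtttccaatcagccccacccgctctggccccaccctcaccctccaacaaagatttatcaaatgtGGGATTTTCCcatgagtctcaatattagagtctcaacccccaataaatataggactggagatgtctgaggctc
IL11, chr19:55370464-55370713, minus strand: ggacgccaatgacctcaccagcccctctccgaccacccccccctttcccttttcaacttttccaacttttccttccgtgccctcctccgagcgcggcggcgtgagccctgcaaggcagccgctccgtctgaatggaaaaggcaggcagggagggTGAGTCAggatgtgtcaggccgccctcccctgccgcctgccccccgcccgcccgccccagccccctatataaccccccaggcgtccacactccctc
IL6ST, chr5:55994964-55995213, minus strand: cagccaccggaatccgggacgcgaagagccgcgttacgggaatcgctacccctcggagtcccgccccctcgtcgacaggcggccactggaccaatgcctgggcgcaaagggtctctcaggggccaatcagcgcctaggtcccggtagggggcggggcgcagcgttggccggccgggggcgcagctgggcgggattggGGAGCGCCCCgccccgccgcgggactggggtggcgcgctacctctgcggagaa
Upstream of IL6 the capitals mark a C/EBP match from -155 to -147 and a kappa-B match from -73 to -64, counted from the start site. The IL11 window holds an AP-1 match from -96 to -90, and the IL6ST window a kappa-B match on the opposite strand from -53 to -44. LIFR, with 3 windows, had GAS matches in 2 of them and a C/EBP match in 1, and these letters are not in the windows of OSMR, IL6R, STAT3 and SOCS3. Among all 35116 windows of the same length, 9.96% held the kappa-B motif, 6.57% the GAS motif, 6.57% AP-1, 1.65% CRE and 2.39% C/EBP. The motifs do not overlap one another in these windows, and a match describes the letters only.

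IL6 (ENSG00000136244, chromosome 7), the cytokine that names the family, stood at 0.882, 0.826, 0.739 and 0.807 CPM in the DMSO libraries. With 4OHT it stood at 4.06, 4.15, 3.52 and 3.67 CPM. In the 4OHT+3DA libraries it stood at 1.98, 0.980, 0.922 and 1.66 CPM. Every 4OHT library lay above every other library, and the 4OHT+3DA libraries fell between the other groups, with libraries 30 and 31 next to the DMSO values. IL6 rose 4.69-fold with 4OHT (log2 2.23, SE 0.29, edgeR adjusted p = 2.59e-06). Adding 3DA lowered it 2.79-fold (log2 -1.48, SE 0.26, edgeR adjusted p = 3.34e-04). Against DMSO, 4OHT+3DA differed by 0.75 (95% interval 0.09 to 1.40, edgeR adjusted p = 0.0523), which did not pass the test, although the libraries did not overlap. That difference was 0.89 without library 30 (adjusted p = 0.0285) and 0.90 without library 31 (adjusted p = 0.0250). With the GC trend of each library removed it was 0.78 (adjusted p = 0.0468), and with that and without library 31 it was 0.96 (adjusted p = 0.0176), so the call depended on these choices. These levels rest on few reads, 39 in the DMSO group, 200 with 4OHT and 92 with 4OHT+3DA.

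LIF (ENSG00000128342, chromosome 22), leukaemia inhibitory factor, gave 33.9, 34.3, 31.3 and 28.03 CPM with DMSO. It gave 94.4, 85.4, 105 and 103 CPM with 4OHT. It gave 90.4, 87.9, 72.1 and 90.9 CPM with 4OHT+3DA. All 8 libraries given 4OHT, with or without 3DA, lay above the DMSO libraries, and the groups with and without 3DA overlapped. LIF rose 3.04-fold with 4OHT (log2 1.61, SE 0.10, edgeR adjusted p = 5.24e-11) and was 2.68-fold above DMSO with 4OHT+3DA (log2 1.42, SE 0.10, edgeR adjusted p = 4.25e-10). Between 4OHT+3DA and 4OHT it differed by -0.19 (95% interval -0.38 to 0.01, edgeR adjusted p = 0.144). Over the 21 alternatives described below, which include leaving out library 31, this difference ran from -0.24 to -0.07 and never passed the test. The lowest 4OHT+3DA value, 72.1 CPM, came from library 31.

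IL11 (ENSG00000095752, chromosome 19), a cytokine known for its part in fibroblast activation, read 7.06, 5.93, 6.65 and 3.67 CPM with DMSO. It read 19.4, 22.3, 20.7 and 20.4 CPM with 4OHT. Its 4OHT+3DA libraries read 15.2, 12.4, 12.9 and 15.8 CPM. The 3 groups did not overlap, and the 4OHT+3DA libraries lay between the others, nearer to 4OHT. IL11 rose 3.60-fold with 4OHT (log2 1.85, SE 0.16, edgeR adjusted p = 1.13e-08) and fell 1.47-fold when 3DA was added (log2 -0.56, SE 0.14, edgeR adjusted p = 0.00755). With 4OHT+3DA it was still 2.44-fold above DMSO (log2 1.29, SE 0.16, edgeR adjusted p = 1.89e-06).

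CLCF1 (ENSG00000175505, chromosome 11), cardiotrophin-like cytokine factor 1, which signals through the CNTF receptor with gp130 and LIFR, was at 9.31, 9.98, 8.59 and 7.48 CPM with DMSO. It was at 25.4, 32.8, 26.7 and 27.95 CPM with 4OHT. The 4OHT+3DA libraries were at 14.8, 14.1, 10.7 and 18.6 CPM. Again the 3 groups did not overlap, and here the 4OHT+3DA libraries lay nearer to DMSO. CLCF1 rose 3.19-fold with 4OHT (log2 1.68, SE 0.15, edgeR adjusted p = 1.99e-08) and fell 1.95-fold with 3DA (log2 -0.96, SE 0.14, edgeR adjusted p = 6.26e-05), which left it 1.64-fold above DMSO (log2 0.71, SE 0.15, edgeR adjusted p = 6.90e-04). In GENCODE 29 the gene overlaps RAD9A and AP003419.1, IL6 overlaps STEAP1B and AC073072.1, OSMR overlaps RICTOR, and IL6ST overlaps 3 genes named only by their clone. LIF, LIFR and IL6R each overlap an antisense gene and 1 further gene. None of the annotated genes overlaps IL11, STAT3 or SOCS3. These overlaps are of whole gene spans, introns included, and overlap of exons was not examined. Since the library kit does not mark strand, reads from any exon stretch shared by such partners cannot be told apart.

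**Figure D2:**
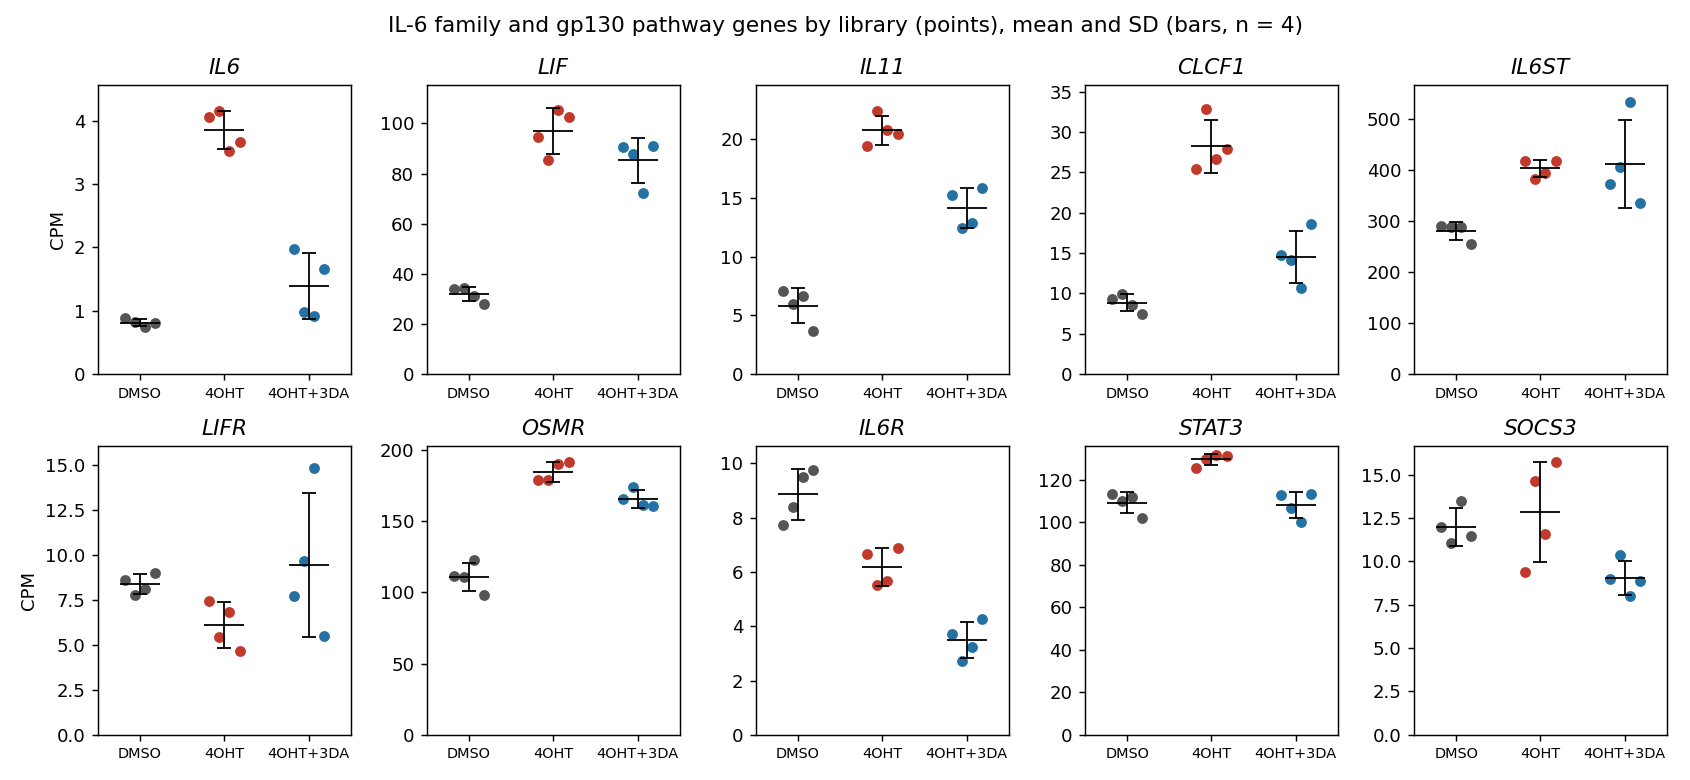
CPM of each of the 10 genes by library (points) in the DMSO, 4OHT and 4OHT+3DA groups, with the mean and SD of 4 libraries (bars), each vertical axis starting at 0. IL6, IL11 and CLCF1 show 3 separate levels, LIF overlaps between 4OHT and 4OHT+3DA, and IL6R steps down from 8.86 to 6.18 and 3.49 CPM.

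Beside the change of each ligand alone, the ratio of ligands was read within each library, where no scaling enters. The ratio of LIF reads to IL6 reads, a pair chosen after the values were seen, averaged 39.3 ± 3.47 with DMSO, 25.4 ± 4.28 with 4OHT and 67.1 ± 20.4 with 4OHT+3DA (SD, n = 4). It ran from 20.6 to 29.9 in the 4OHT libraries and from 45.6 to 89.6 in the 4OHT+3DA libraries, with no overlap, and no test was made of it.

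IL6ST (ENSG00000134352, chromosome 5), the gene of gp130, was the most abundant of the 10 genes. It stood at 291, 288, 288 and 255 CPM in the DMSO libraries. With 4OHT it stood at 418, 383, 395 and 418 CPM. With 4OHT+3DA it stood at 373, 405, 533 and 335 CPM. All 8 libraries given 4OHT exceeded the DMSO libraries, and the 4OHT+3DA values spread around the 4OHT values, with library 31 the highest of all 12. IL6ST rose 1.44-fold with 4OHT (log2 0.52, SE 0.10, edgeR adjusted p = 3.02e-04) and was 1.47-fold above DMSO with 4OHT+3DA (log2 0.55, SE 0.10, edgeR adjusted p = 1.80e-04). Over the 21 alternatives described below, which include leaving out library 31, the latter log2 change ran from 0.33 to 0.64 and passed the test in each.

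Between 4OHT+3DA and 4OHT, IL6ST differed by 0.03 (95% interval -0.19 to 0.25, edgeR adjusted p = 0.859). This value depended on library 31. Without that library it was -0.12 (edgeR adjusted p = 0.211). With each library's trend over GC content removed it was -0.26 (edgeR adjusted p = 0.00116), a fall that passed the test. This correction also takes out GC trends that differ between the groups, and their part in the fall was not tested. The IL6ST transcript has a GC content of 36.6%. Measured against its group, the trend of library 31 at that content was 0.36 of the 0.40 by which IL6ST deviated there.

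LIFR (ENSG00000113594, chromosome 5), the LIF receptor chain, was at 8.63, 7.81, 8.13 and 9.02 CPM with DMSO. It was at 7.45, 5.43, 6.84 and 4.67 CPM with 4OHT. It was at 7.74, 9.65, 14.9 and 5.53 CPM with 4OHT+3DA. The 4OHT libraries all lay below the DMSO libraries, and the 4OHT+3DA libraries spanned both, from 5.53 CPM in library 32 to 14.9 in library 31. The difference between 4OHT and DMSO was -0.47 (95% interval -0.97 to 0.03, edgeR adjusted p = 0.106) and did not pass the test with all libraries. It passed without library 31, at the same size (log2 -0.47, adjusted p = 0.0303).

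LIFR was higher with 4OHT+3DA than with 4OHT (log2 0.65, SE 0.23, edgeR adjusted p = 0.0440), and this call did not hold without library 31 (log2 0.35, adjusted p = 0.191) or with the GC trend removed (log2 0.32, adjusted p = 0.198). It was also lost when any of the 4 DMSO libraries, 4OHT library 22, 23 or 24, or library 30 was left out (0.54 to 0.72, adjusted p 0.0533 to 0.130). The LIFR transcript has 36.2% GC, and the trend of library 31 there was 0.38 of a deviation of 0.74. Against DMSO, LIFR with 4OHT+3DA differed by 0.18 (95% interval -0.29 to 0.65, edgeR adjusted p = 0.536), and by -0.12 without library 31.

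**Figure D3:**
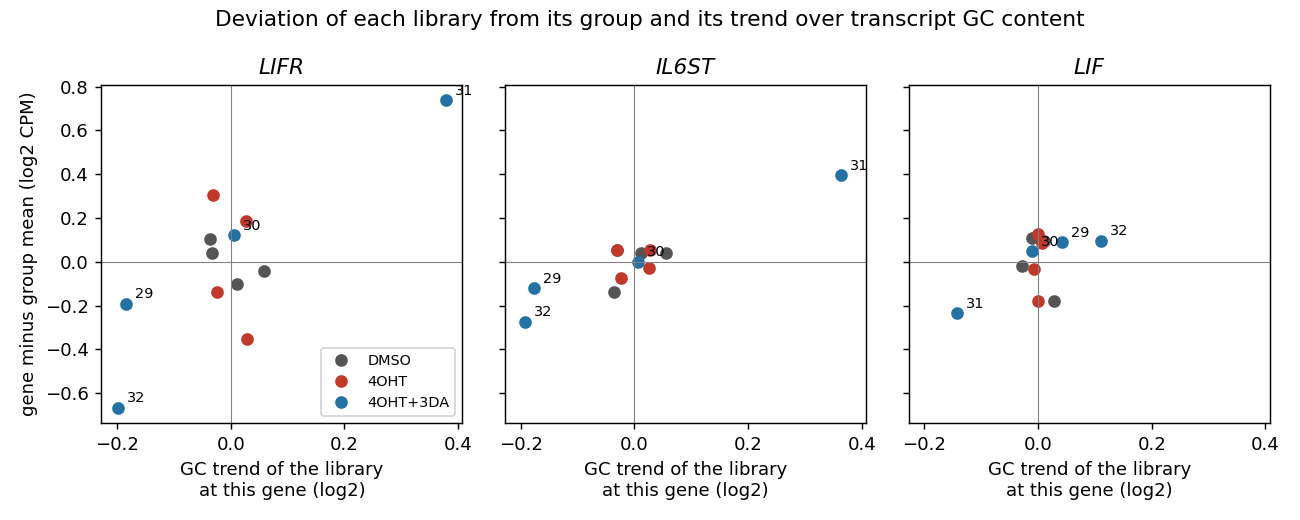
Deviation of LIFR, IL6ST and LIF from their group mean in each library (vertical, log2 CPM) against the GC trend of that library at the GC content of that transcript (horizontal, log2), with the 4OHT+3DA libraries numbered. Library 31 lies far to the right for LIFR and IL6ST, with a trend of 0.38 and 0.36, and far to the left for LIF, whose transcript has 56.9% GC, with a trend of -0.14.

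OSMR (ENSG00000145623, chromosome 5), the oncostatin M receptor chain, read 112, 111, 123 and 98.4 CPM with DMSO. It read 179, 179, 190 and 192 CPM with 4OHT. It read 166, 174, 161 and 161 CPM with 4OHT+3DA. The 3 groups did not overlap, and both 4OHT groups lay well above DMSO. OSMR rose 1.67-fold with 4OHT (log2 0.74, SE 0.07, edgeR adjusted p = 5.35e-08) and was 1.49-fold above DMSO with 4OHT+3DA (log2 0.58, SE 0.07, edgeR adjusted p = 1.55e-06). The step from 4OHT to 4OHT+3DA was -0.16 (95% interval -0.31 to -0.01, edgeR adjusted p = 0.101) and did not pass the test over all genes. Its ligand OSM had 0 reads in all 12 libraries, which allows up to 0.0625 CPM in the DMSO group, 0.0573 with 4OHT and 0.0442 with 4OHT+3DA (3 reads per group, counting error only).

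IL6R (ENSG00000160712, chromosome 1), the IL-6-binding chain, was at 7.74, 8.41, 9.51 and 9.76 CPM with DMSO. It was at 6.67, 5.51, 5.67 and 6.87 CPM with 4OHT. It was at 3.72, 2.74, 3.23 and 4.28 CPM with 4OHT+3DA. The 3 groups stepped down without overlap, so IL6R was the only one of the 10 genes to fall in all 3 comparisons. It fell 1.44-fold with 4OHT (log2 -0.52, SE 0.16, edgeR adjusted p = 0.0115) and a further 1.78-fold with 3DA (log2 -0.83, SE 0.17, edgeR adjusted p = 0.00149). With 4OHT+3DA it stood 2.55-fold below DMSO (log2 -1.35, SE 0.17, edgeR adjusted p = 1.67e-06).

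The balance among receptor transcripts was read within each library, and was described without a test. There were 13.3 ± 1.82 reads of OSMR per LIFR read with DMSO, 31.5 ± 7.37 with 4OHT and 19.8 ± 7.56 with 4OHT+3DA (SD, n = 4). In the 4OHT libraries the ratio ran from 24.03 to 41.1, above all DMSO libraries (10.9 to 15.1), and library 31, at 10.9, stood beside the lowest DMSO library. The ratio of IL6R to IL6ST reads went from 0.0318 ± 0.00509 with DMSO to 0.0153 ± 0.00108 with 4OHT and 0.00889 ± 0.00311 with 4OHT+3DA, with no overlap between the 3 groups. OSMR to IL6ST reads stood at 0.395 ± 0.0204, 0.459 ± 0.0223 and 0.414 ± 0.0773 in the same order. The lower mean with 4OHT+3DA rested on library 31, at 0.303. Libraries 29, 30 and 32 ran from 0.430 to 0.479, within the 4OHT range of 0.429 to 0.481.

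**Figure D4:**
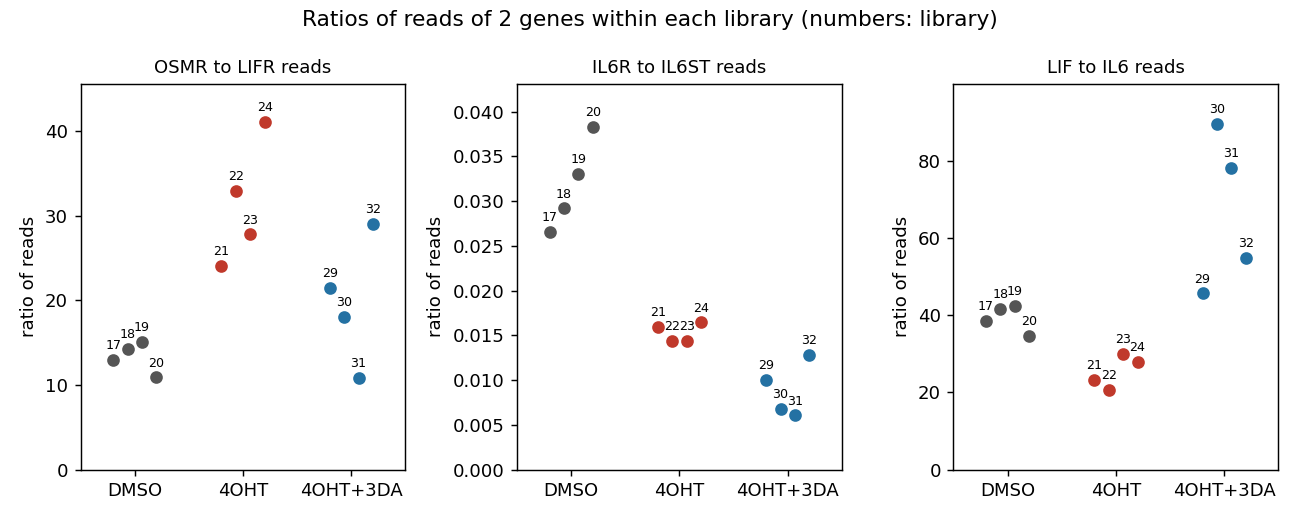
Ratio of the reads of 2 genes within each library (points, numbered by library) for OSMR to LIFR, IL6R to IL6ST and LIF to IL6, each axis starting at 0. IL6R to IL6ST steps down from group to group, and the 4OHT+3DA libraries range from 10.9 (library 31) to 29.1 (library 32) for OSMR to LIFR.

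STAT3 (ENSG00000168610, chromosome 17), the main transcription factor downstream of gp130, stood at 113, 110, 112 and 102 CPM with DMSO. With 4OHT it stood at 126, 130, 131 and 131 CPM. With 4OHT+3DA it stood at 113, 107, 100 and 113 CPM. The 4OHT libraries were the highest, and the DMSO and 4OHT+3DA libraries covered the same range. STAT3 rose 1.19-fold with 4OHT (log2 0.25, SE 0.07, edgeR adjusted p = 0.00432), a call that was lost when libraries were scaled by their totals alone (log2 0.09, adjusted p = 0.327), a scaling under which the median of all genes was -0.17. It fell 1.197-fold with 3DA (log2 -0.26, SE 0.07, edgeR adjusted p = 0.00707). Between 4OHT+3DA and DMSO the difference was -0.01 (95% interval -0.15 to 0.13, edgeR adjusted p = 0.881). STAT3 activity depends on phosphorylation, which RNA counts do not measure.

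SOCS3 (ENSG00000184557, chromosome 17), the feedback inhibitor that STAT3 induces, was at 12.0, 11.04, 13.5 and 11.4 CPM with DMSO. It was at 9.38, 14.6, 11.6 and 15.7 CPM with 4OHT. The 4OHT+3DA libraries were at 9.01, 10.4, 8.01 and 8.84 CPM. The 4OHT libraries straddled the DMSO range, and the 4OHT+3DA libraries all lay below DMSO. With 4OHT, SOCS3 differed from DMSO by 0.11 (95% interval -0.21 to 0.43, edgeR adjusted p = 0.572), and the sign turned without library 24 and under scaling by library totals (-0.046). With 4OHT+3DA it fell 1.42-fold below 4OHT (log2 -0.51, SE 0.15, edgeR adjusted p = 0.0183) and 1.32-fold below DMSO (log2 -0.40, SE 0.15, edgeR adjusted p = 0.0362). The drop from 4OHT did not pass without library 22 (-0.44, adjusted p = 0.0660) or library 24 (-0.39, adjusted p = 0.0830), or with the GC trend removed and library 31 left out (-0.40, adjusted p = 0.0651). The drop below DMSO did not pass without library 17, 19, 29, 31 or 32 (-0.40 to -0.34, adjusted p 0.0619 to 0.108) or with no filter on low counts (-0.36, adjusted p = 0.0820). It also did not pass with the GC trend removed (-0.25, adjusted p = 0.158), nor with that and without library 31 (-0.24, adjusted p = 0.216).

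Levels of different genes were compared per kilobase of exon, with lengths from GENCODE 29, an annotation of another build than the authors used. In the DMSO libraries gp130 led at 30.2 ± 1.86 CPM per kb, followed by OSMR (15.5 ± 1.39), STAT3 (12.4 ± 0.574) and LIF (8.03 ± 0.730). CLCF1 (4.48 ± 0.542) and SOCS3 (4.38 ± 0.392) did not differ beyond their spread, and IL11 (2.18 ± 0.566), IL6R (1.37 ± 0.147), LIFR (0.708 ± 0.0453) and IL6 (0.393 ± 0.0286) came last. Thus IL6 was the lowest of the 10 genes in the DMSO group, and LIF stood above every other ligand in each group.

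With 4OHT, LIF (24.4 ± 2.27 CPM per kb) did not differ from OSMR (25.8 ± 0.974) beyond their spread, nor CLCF1 (14.3 ± 1.63) from STAT3 (14.7 ± 0.300). IL6 moved up to 1.86 ± 0.146, past IL6R (0.958 ± 0.107) and LIFR (0.514 ± 0.107). With 4OHT+3DA, LIFR (0.797 ± 0.336), IL6 (0.670 ± 0.251) and IL6R (0.541 ± 0.103) did not differ beyond their spread. When the longest transcript was used as the length, STAT3 moved above OSMR with DMSO and above LIF with 4OHT, while gp130 remained the highest in all 3 groups. With that length and 4OHT, OSMR stood at 33.4 CPM per kb against 24.4 for LIF. STAT3 likewise stood at 25.7 against 15.3 for CLCF1. The likeness within these pairs thus depended on the length used.

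Of 8 further ligands listed, not all of which need gp130, 2 passed the filter. IL12A, the p35 subunit shared by interleukins 12 and 35, was at 11.9, 14.0, 8.87 and 10.4 CPM with DMSO and at 18.3, 19.2, 19.4 and 24.9 CPM with 4OHT, without overlap. It rose 1.81-fold with 4OHT (log2 0.86, SE 0.15, edgeR adjusted p = 5.88e-05) and with 4OHT+3DA stood at 19.95 ± 2.48 CPM (log2 -0.04 against 4OHT, 95% interval -0.32 to 0.25, adjusted p = 0.868). CTF1, cardiotrophin 1, was at 1.42 ± 0.588, 0.977 ± 0.379 and 0.850 ± 0.294 CPM in the 3 groups and was not called in any comparison. OSM, IL27 and IL31 had 0 reads in all libraries, and CNTF and EBI3 stayed at 4 to 29 reads per group.

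Among 5 other receptor chains, 3 passed the filter, and 2 rose and 1 fell with 4OHT. IL31RA, which lies next to IL6ST on chromosome 5 and pairs with OSMR, was at 0.920 ± 0.495 CPM with DMSO, 3.07 ± 0.354 with 4OHT and 2.13 ± 0.381 with 4OHT+3DA, a 3.33-fold rise with 4OHT (log2 1.73, SE 0.32, edgeR adjusted p = 1.56e-04). IL31RA had 44 reads in the DMSO group, 161 with 4OHT and 145 with 4OHT+3DA. IL27RA, the interleukin 27 receptor chain, rose 1.92-fold with 4OHT, from 4.70 ± 0.776 to 9.09 ± 1.02 CPM (edgeR adjusted p = 5.58e-05), and fell 1.78-fold with 3DA, to 5.11 ± 0.364 CPM (edgeR adjusted p = 5.61e-04). IL11RA, the IL-11-binding chain, fell 2.27-fold with 4OHT, from 6.88 ± 0.911 to 3.06 ± 0.500 CPM (log2 -1.18, SE 0.20, edgeR adjusted p = 7.61e-05), and stood at 3.60 ± 0.884 CPM with 4OHT+3DA. The ligand-binding chains of both IL-6 and IL-11 were thus lower with 4OHT while their ligands were higher. CNTFR and IL12RB2 had at most 4 reads per group.

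JAK kinases and the other STATs held 10 genes, of which 9 passed the filter. With 4OHT, 2 rose (26.5% of all genes tested did) and 5 fell (25.5%), with a median of -0.29 against -0.01 for all genes. STAT2, a STAT of interferon signalling, fell from 112 ± 3.78 to 79.0 ± 5.79 CPM (log2 -0.51, SE 0.07, edgeR adjusted p = 9.05e-06). JAK2, a kinase bound to gp130, fell from 12.5 ± 0.830 to 8.90 ± 0.531 CPM (log2 -0.49, SE 0.14, edgeR adjusted p = 0.00713). With 3DA, 0 of the 9 were higher than with 4OHT (14.4% of all genes were) and 2 were lower (12.4%), a share called near the 26.9% of all genes. The lower genes were STAT4 (log2 -1.26, edgeR adjusted p = 0.0256) and STAT6 (log2 -0.27, edgeR adjusted p = 0.0216). STAT4 rests on 19 to 67 reads per group, and its call was lost without library 31 (adjusted p = 0.0572), where TYK2 was called higher (log2 0.27, adjusted p = 0.0350). STAT4 was also not called with no filter on low counts (log2 -1.24, adjusted p = 0.0636). STAT6 was not called with library totals (log2 -0.21, adjusted p = 0.0854), no filter (log2 -0.24, adjusted p = 0.0708) or the GC trend removed (log2 -0.18, adjusted p = 0.0707). The list held 2 higher and 1 lower with library totals, 0 and 0 with no filter, and 1 and 1 with the GC trend removed. Against DMSO, 1 of the 9 was higher (27.0% of all genes) and 3 were lower (24.6%) with 4OHT+3DA.

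Brakes on the pathway and the proteases that shed its receptors held 17 genes, of which 15 passed the filter. With 4OHT, 4 rose (26.5% of all genes tested) and 7 fell (25.5%), with a median of -0.04, and with library totals 2 rose and 7 fell. SOCS1, a JAK inhibitor related to SOCS3, read 3.04, 4.20, 3.79 and 3.96 CPM with DMSO and 0.193, 0.239, 0.553 and 0.467 CPM with 4OHT. That was a 9.74-fold fall (log2 -3.28, SE 0.36, edgeR adjusted p = 2.52e-07), and with 4OHT+3DA it stayed at 0.489 ± 0.229 CPM. The size of the SOCS1 fall rests on few reads, 182 in the DMSO group, 20 with 4OHT and 32 with 4OHT+3DA. SOCS5 fell from 119 ± 6.45 to 57.7 ± 5.76 CPM (log2 -1.05, SE 0.11, edgeR adjusted p = 2.60e-07). PTPN1, a phosphatase that acts on JAK2, rose from 102 ± 4.22 to 187 ± 12.3 CPM (log2 0.87, SE 0.07, edgeR adjusted p = 3.75e-09).

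SOCS2, which acts mainly on growth hormone receptor signalling, moved in opposite directions in the 2 steps. It stood at 38.6, 38.6, 37.5 and 34.0 CPM with DMSO and at 10.5, 12.9, 10.8 and 12.1 CPM with 4OHT. It stood at 28.8, 31.4, 50.2 and 32.9 CPM with 4OHT+3DA. All 4OHT libraries were the lowest, and the other groups overlapped, with library 31 the highest of the 12. SOCS2 fell 3.20-fold with 4OHT (log2 -1.68, SE 0.15, edgeR adjusted p = 1.56e-08) and rose 3.08-fold when 3DA was added (log2 1.62, SE 0.15, edgeR adjusted p = 1.86e-07). Of the 15 genes, 2 were higher (14.4% of all genes) and 2 lower (12.4%) with 3DA than with 4OHT alone, both with and without library 31, a share called near the 26.9% of all genes. They were 2 and 4 with the GC trend removed, and 3 and 1 with library totals or with no filter. Besides SOCS2, ADAM10, a protease known to shed IL-6 receptors, was higher (164 ± 10.1 to 226 ± 43.2 CPM, log2 0.46, SE 0.10, edgeR adjusted p = 0.00313), and PTPN1 was lower (to 149 ± 8.34 CPM, log2 -0.32, SE 0.07, edgeR adjusted p = 0.00197). Against DMSO, 4 were higher (27.0% of all genes) and 5 were lower (24.6%) with 4OHT+3DA, and 2 and 6 with library totals.

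Genes known to be induced through STAT3 numbered 30, of which 20 passed the filter. With 4OHT, 12 rose (26.5% of all genes tested) and 5 fell (25.5%), with a median of 0.62 against -0.01 for all genes. The counts were 10 and 7 with library totals, and 11 and 6 with no filter on low counts. They were 13 and 6 with the GC trend removed or without library 31. TIMP1, a metalloproteinase inhibitor, rose 7.04-fold, from 2002 ± 166 to 14095 ± 647 CPM (log2 2.82, SE 0.07, edgeR adjusted p = 1.52e-16). MCL1, a survival protein of the BCL2 family, rose 2.99-fold, from 41.0 ± 3.15 to 123 ± 10.96 CPM (log2 1.58, SE 0.12, edgeR adjusted p = 2.23e-09), and JUNB, an AP-1 subunit, 2.70-fold, from 17.97 ± 0.919 to 48.6 ± 2.12 CPM (log2 1.44, SE 0.10, edgeR adjusted p = 2.22e-10). BIRC5, survivin, a gene of dividing cells, fell 8.56-fold, from 64.2 ± 6.22 to 7.48 ± 0.496 CPM (log2 -3.10, SE 0.10, edgeR adjusted p = 7.12e-15). Many of these genes answer to other factors as well, and their counts are not a measure of STAT3 activity.

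With 3DA, 3 of the 20 were higher than with 4OHT (14.4% of all genes) and 5 were lower (12.4%), both with and without library 31, and the median was -0.13 against 0.01 for all genes. The share higher was near that of all genes. ICAM1, an adhesion molecule, stood at 25.4, 20.2, 23.2 and 24.3 CPM with DMSO and at 51.1, 47.2, 65.0 and 61.1 CPM with 4OHT. It stood at 10.4, 9.24, 10.2 and 13.2 CPM with 4OHT+3DA. The 3 groups did not overlap, and with 3DA it lay below the DMSO level. ICAM1 fell 5.23-fold from 4OHT to 4OHT+3DA (log2 -2.39, SE 0.13, edgeR adjusted p = 2.81e-10). TIMP1 fell 1.47-fold, to 9607 ± 822 CPM (log2 -0.55, SE 0.07, edgeR adjusted p = 7.22e-06), whereas BIRC5 rose 3.30-fold, to 24.8 ± 1.14 CPM (log2 1.72, SE 0.10, edgeR adjusted p = 1.28e-09), and MCL1 rose 1.47-fold, to 181 ± 39.3 CPM (log2 0.56, SE 0.12, edgeR adjusted p = 0.00159). Against DMSO, 10 were higher (27.0% of all genes) and 7 were lower (24.6%) with 4OHT+3DA.

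**Figure D5:**
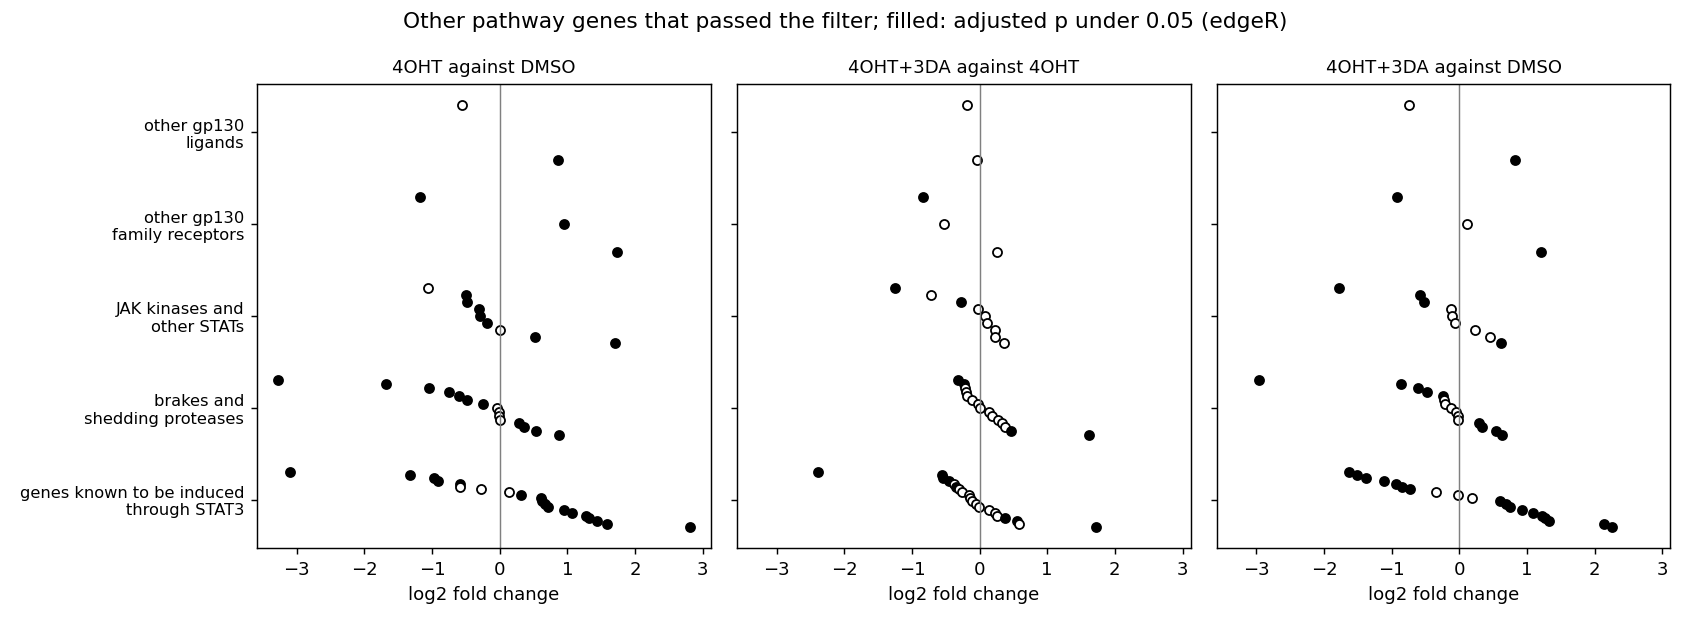
Log2 fold changes (horizontal) of the genes of 5 other pathway lists that passed the filter, 1 point per gene, in the 3 comparisons, filled where the edgeR adjusted p was under 0.05. For 4OHT against DMSO the brakes reach from -3.28 (SOCS1) to 0.87 (PTPN1) and the genes known to be induced through STAT3 from -3.10 (BIRC5) to 2.82 (TIMP1).

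Genes with the most similar pattern over the 12 libraries were found by Pearson's r of log2 CPM, as a description of libraries that fall into 3 groups. For IL6 they were CMTM7 (r = 0.988), BLCAP (0.986) and ALDOA (0.982). The closest to LIF were MMP14 (0.996), RRP12 (0.994) and SEMA7A (0.993), and MANCR (0.982) and SERPINB8 (0.982) were among the closest to IL11. CLCF1 was closest to SLC3A2 (0.981), CDKN1A (0.979) and CTSB (0.978). SOCS3 had no gene as close, with RAB11FIP5 (0.870), VASN (0.861) and BAG3 (0.849) first. No gene appears beside more than 1 of these 5.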

How the data were processed

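Smart-Seq2 cDNA and Nextera XT indexing gave 12 libraries of IMR90 ER:RAS RNA, 4 per group, per the labels' protocols. The authors deposited raw counts, 1 whole number of reads for each gene and library, with no normalisation. The submitters' processing notes name CASAVA 1.8.2, TopHat2 2.0.11, featureCounts 1.18.0, hg19 and GRCh37. How strand and multiply matching reads were handled is not given in the sources used here. Groups follow the treatment named in the labels. Of 62069 identifiers, 50127 were matched to a symbol, and 117 of 118 entries of the gene lists had a count.

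The test was that of edgeR 4.0.16 (R 4.3.3) on these counts: filterByExpr (minimum count 10), TMM factors, 1 quasi-likelihood model of 3 groups with 9 residual degrees of freedom, Benjamini-Hochberg adjustment, threshold 0.05. SE is the size of the log2 change divided by the root of F. CPM used filtered library sizes times TMM factors, and log values a prior count of 2. No library was a copy of another: over 18 replicate pairs, chi-square per degree of freedom was 3.07 to 41.5. Alternatives were DESeq2 1.42.0, limma-voom (limma 3.58.1), RLE factors, library totals, 2 other filters, the 8 libraries compared, and each library left out. A GC correction (loess, span 0.4, GC known for 98% of genes) was added after the data were seen. It took each library's trend against the mean of all libraries, so trends that differ between groups were removed with it. The steps were tested on simulated counts. Python 3.11.15 and matplotlib 3.10.9 drew the plots.

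The 10 genes, the lists and the rules were chosen with earlier results of these data known. Named were all 10 genes, up to 4 called genes of each pathway list with the largest change per comparison, the tested other ligands and receptors, and the 3 genes most correlated with each ligand and with SOCS3. Some genes that this rule names are not reported here.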

Additional observations from a re-analysis of the deposited data

Results flagged for a closer look

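Of 30 groups of 4 libraries, 2 held a library far from the others by Dixon's test, which flags about 1 in 20 groups by chance. LIF was lowest among the 4OHT+3DA libraries in library 31, at 72.1 CPM, with the other 3 at 87.9 to 90.9 CPM. IL6ST was lowest among the DMSO libraries in library 20, at 255 CPM, with the other 3 at 288 to 291 CPM.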

How the results depend on the processing

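Each of the 30 changes (10 genes, 3 comparisons) was computed under 21 alternatives, 630 values in all: 583 kept direction and side of the threshold, 26 kept direction but lost the call, 8 gained it and 13 changed sign. Changes of 19 kept both throughout, among them those of IL6, LIF, IL11, CLCF1, IL6ST, OSMR and IL6R for 4OHT against DMSO. The 13 sign changes were all of values not called with all libraries. SOCS3 for 4OHT against DMSO was -0.046 with library totals and ran from -0.0049 (without library 24) to 0.23 with 1 library left out. IL6ST for 4OHT+3DA against 4OHT ran from -0.12 (without library 31) to 0.12, and was -0.26 with the GC correction and -0.27 with it and without library 31. STAT3 for 4OHT+3DA against DMSO was 0.027 with no filter on low counts, 0.0051 without library 17, 0.024 without library 31 (lowest -0.053, without library 20), 0.082 with the GC correction and 0.10 with it and without library 31. LIFR in that comparison ran from -0.12 (without library 31) to 0.36, and was -0.092 with the GC correction and -0.22 with it and without library 31. The cause was not tested. LIFR for 4OHT against DMSO passed the test with library totals (-0.63), no filter (-0.46), the 8 libraries compared (-0.48) and without library 31 (-0.47). The higher LIFR for 4OHT+3DA against 4OHT also did not pass with limma-voom (0.60, adjusted p = 0.0741) or the 8 libraries compared (0.65, adjusted p = 0.0931). STAT3 in that comparison did not pass with no filter (-0.23, adjusted p = 0.0553). Leaving out 1 library at a time gave 6355 to 7667 genes called for 4OHT against DMSO, 2719 to 3956 for 4OHT+3DA against 4OHT and, for 4OHT+3DA against DMSO, 6260 to 6999. These held 8 to 9, 5 to 7 and 6 to 8 of the 10 genes. With library totals, 2385 genes were higher and 4727 lower for 4OHT against DMSO (3511 and 3378 with TMM), 2535 and 1207 for 4OHT+3DA against 4OHT (1909 and 1649). For 4OHT+3DA against DMSO these were 2798 and 4035 (3572 and 3253). With no filter, 2207 were higher and 1371 lower for 4OHT+3DA against 4OHT. No paired analysis was possible because the groups share no replicate numbers. Depth limits IL6 most, with 8 to 11 reads per DMSO library.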
